A study of Homo sapiens with 12 samples.

Results

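The 31 genes described here make cholesterol and fatty acids or control that synthesis, and they were taken by symbol from the 33694 genes listed in the human count files. All 31 were found: 8 act from acetyl-CoA through mevalonate to squalene, 10 from squalene to cholesterol, 6 control the pathway or carry sterol, and 7 make or modify fatty acids. RNA was measured by 3′ tag sequencing (QuantSeq FWD), which reads near the polyadenylated end of each transcript. The cells were A375, an established human melanoma line whose BRAF gene carries an activating mutation, and A375-BIR, which the labels call its BRAF-inhibitor-resistant counterpart without saying how it was derived or whether it is 1 clone. Both lines grew in RPMI with 10% serum, and serum supplies sterol and fatty acids in every group. Each received 200 nM dabrafenib, a drug that blocks BRAF kinase activity, or 0.1% DMSO; the labels give 48 h and 3 biological replicates per group.

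Cells make cholesterol from acetyl-CoA through mevalonate, squalene and lanosterol, and make fatty acids from the same precursor. Most genes of both branches are targets of the SREBP transcription factors, which sit in the endoplasmic reticulum membrane with the escort protein SCAP. When membrane sterol is low, SCAP carries SREBP to the Golgi, where it is cut and released to the nucleus; when sterol is high, the INSIG proteins hold SCAP back. SREBF2 mainly drives sterol genes and SREBF1 mainly fatty acid genes, and INSIG1 is itself an SREBP target. Growth signalling through the RAF-MEK-ERK and PI3K pathways is known to raise SREBP activity in tumour cells.

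Usable human files exist for 10 of 12 libraries. The files of A375 DMSO replicates 2 and 3 list mouse gene identifiers and were not used, so A375 DMSO stands on 1 library. The file name of that library also carries another run stamp than those of the 9 others. What the stamp marks is not stated. Run stamp and group cannot be told apart wherever that library enters. Gene counts per library ranged from 198690 to 1999840. Mitochondrial transcripts took 4.63% to 7.21% of gene counts in A375-BIR, 10.7% to 15.1% in A375 with dabrafenib and 15.1% in A375 DMSO. The 7 melanocytic marker genes summed to 203 to 319 CPM (counts per 1000000) in the 6 A375-BIR libraries, 1074 in A375 DMSO and 2511 to 3277 in A375 with dabrafenib. For the marker lists CPM is taken on the raw gene total of the library. The levels of the listed genes below are on the TMM-scaled library total. Of 4 keratinocyte markers KRT1 and KRT5 were at 0 counts in all 10 libraries, and KRT14 and KRT10 summed to 47.7 to 70.8 CPM in A375-BIR with DMSO, 25.6 to 62.4 CPM in A375-BIR with dabrafenib, 23.002 CPM in A375 DMSO and 30.2 to 48.6 CPM in A375 with dabrafenib. The 5 fibroblast markers, none of them at 0 throughout, summed to 8.63 to 12.7, 19.6 to 21.4, 12.001 and 0 to 12.2 CPM in the same order. The 4 leukocyte markers summed to at most 2.03 CPM (CD3E at 0 throughout) and the 3 endothelial ones to at most 1.06 CPM (VWF and CDH5 at 0 throughout). The part of the cells these lists mark in the results was not tested. The A375-BIR dabrafenib libraries differed from each other more than other replicates did, with a chi-square per gene of 4.29 to 4.89 against 1.30 to 1.75 among A375-BIR DMSO and 1.09 to 2.46 among A375 dabrafenib libraries. In bulk RNA, fewer cells carrying a transcript and less of it per cell cannot be told apart.

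Of the 31 genes, 28 passed the filter on low counts, which asks for about 17.5 CPM in at least 1 library, and 15 of these passed it in all 4 groups. Another 6 passed through a single group: PMVK and NSDHL through A375 DMSO, and LSS, TM7SF2, DHCR7 and SREBF1 through 1 library of A375-BIR with dabrafenib. ACAT2, IDI1 and STARD4 passed through libraries of A375-BIR alone. For these a difference that involves the group or line that let them in is partly set by the filter. CYP51A1, HSD17B7 and FADS2 had 18, 81 and 53 counts in all libraries together and were not tested. A gene was called when its adjusted p (edgeR quasi-likelihood test, Benjamini-Hochberg over 10236 genes) was under 0.05. Differences are log2 values with an approximate standard error.

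The promoters of 5 genes are shown because they let the sequence be set beside the levels that follow: HMGCS1, MSMO1 and INSIG1 moved together among the A375-BIR libraries, SCD did not follow them, and SREBF2 encodes the factor itself. Each is the 250 bases before the RefSeq start site (GRCh38.p14), read 5′ to 3′ on the gene's strand. Capitals mark CCAAT (or its complement ATTGG), the box of the NF-Y factor that commonly works beside SREBP; CACGTG, an E-box; and TCACNCCAC, a form of the sterol regulatory element.
HMGCS1, chr5:43313413-43313662, minus strand: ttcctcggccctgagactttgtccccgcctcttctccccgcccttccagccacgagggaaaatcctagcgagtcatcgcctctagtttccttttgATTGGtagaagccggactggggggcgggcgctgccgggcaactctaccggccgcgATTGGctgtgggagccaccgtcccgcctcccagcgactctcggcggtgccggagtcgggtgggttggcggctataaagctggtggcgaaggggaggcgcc
MSMO1, chr4:165327419-165327668, plus strand: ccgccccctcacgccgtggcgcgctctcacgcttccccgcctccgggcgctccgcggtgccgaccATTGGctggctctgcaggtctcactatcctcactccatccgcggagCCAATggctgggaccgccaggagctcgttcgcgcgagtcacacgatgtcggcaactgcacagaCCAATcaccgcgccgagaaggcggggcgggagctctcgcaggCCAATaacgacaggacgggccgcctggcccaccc
INSIG1, chr7:155297628-155297877, plus strand: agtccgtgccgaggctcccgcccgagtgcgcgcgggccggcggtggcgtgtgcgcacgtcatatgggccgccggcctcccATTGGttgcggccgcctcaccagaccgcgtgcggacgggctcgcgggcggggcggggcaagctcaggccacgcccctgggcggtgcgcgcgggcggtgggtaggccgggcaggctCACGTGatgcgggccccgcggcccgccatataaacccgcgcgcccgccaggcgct
SREBF2, chr22:41832855-41833104, plus strand: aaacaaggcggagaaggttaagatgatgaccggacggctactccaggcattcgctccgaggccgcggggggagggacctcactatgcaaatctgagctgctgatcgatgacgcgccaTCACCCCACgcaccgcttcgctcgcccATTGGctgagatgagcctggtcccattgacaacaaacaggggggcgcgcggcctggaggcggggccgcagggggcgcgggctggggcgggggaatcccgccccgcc
SCD, chr10:100346983-100347232, plus strand: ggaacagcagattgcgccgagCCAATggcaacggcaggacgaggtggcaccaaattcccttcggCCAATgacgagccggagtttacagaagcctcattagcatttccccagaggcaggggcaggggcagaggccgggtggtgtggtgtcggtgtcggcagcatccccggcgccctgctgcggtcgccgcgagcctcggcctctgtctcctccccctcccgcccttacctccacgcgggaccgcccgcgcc

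Each of the 5 windows holds CCAAT on one strand or the other. MSMO1, which encodes the sterol C4-methyl oxidase, has 4 of them, HMGCS1 and SCD have 2 each, and INSIG1 and SREBF2 have 1 each. Over the full windows of 250 bases before to 50 after the start, searched on both strands, 17 of the 27 genes with a RefSeq entry held CCAAT (63.0%), against 35.7% of 27305 promoters and 37.3% of the 8337 promoters of tested genes. By role these were 4 of 6 genes up to squalene, 8 of 9 from squalene to cholesterol, 3 of 6 of the control genes and 2 of 6 of the fatty acid genes. CACGTG was found in 4 of 27 (LSS, SC5D, INSIG1 and SCAP; 14.8%), against 7.43% of all promoters and 10.4% of those of tested genes. TCACNCCAC was found only in SREBF2 (1 of 27, 3.70%), against 1.15% and 1.07%. A match describes letters in the window, and the list of 31 genes is made of known pathway members, many of them known SREBP targets, so these shares are a description of the list.

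In A375-BIR, dabrafenib was compared with DMSO within 1 run stamp, 3 libraries against 3. None of the 28 tested genes was called higher or lower by edgeR, nor by DESeq2 any of the 17 to which it gave an adjusted p. Of all genes tested, 2.46% were called (1.36% higher and 1.1% lower), so that fewer than 1 call among 28 is what the background share gives. At an unadjusted p under 0.05, 5 were lower and 0 higher. The share of all genes tested under that threshold is not given here, so no excess is read from this count. All 8 genes up to squalene had negative differences (median -0.50), as had 5 of 8 from squalene to cholesterol (median -0.40). The 6 fatty acid genes had a median of -0.06 and the 6 control genes one of 0.29, beside 0.02 over all genes tested. In 4 of 28 genes (ACAT2, SQLE, EBP and FADS1, 14.3%) every dabrafenib library lay below every DMSO library, and in 0 every one lay above. Of all 10236 genes tested, 923 lay apart lower and 922 higher, together 18.02%.

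**Figure D1:**
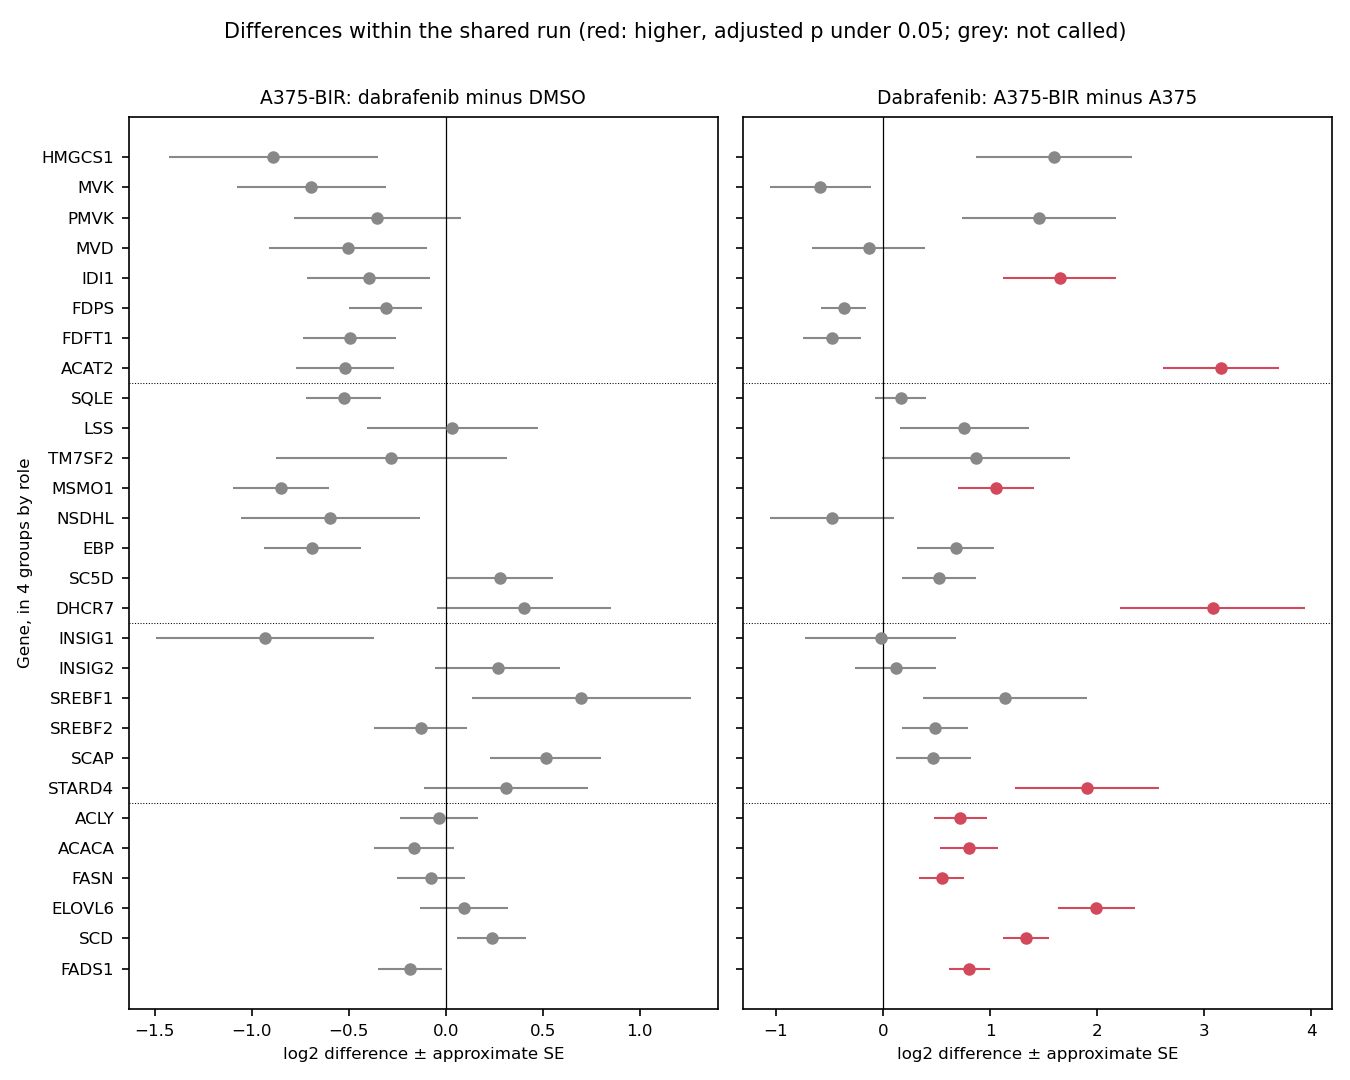
Log2 differences (horizontal axis, with approximate standard error) for the 28 tested genes in 4 groups by role, for dabrafenib against DMSO in A375-BIR (left) and for A375-BIR against A375 under dabrafenib (right); red points were called higher. No gene is called on the left, where the first 8 all lie below 0, and 11 are called on the right, among them the 6 fatty acid genes.

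HMGCS1, the cytosolic HMG-CoA synthase that makes the precursor of mevalonate (chr5:43289395-43313512, GRCh38), stood at 316, 244 and 403 CPM with DMSO and at 69.1, 322 and 140 CPM with dabrafenib. The libraries of dabrafenib replicates 1 and 3 lay below all DMSO libraries and replicate 2 within their range, so that the groups overlapped and the difference of -0.89 ± 0.54 was not called (adjusted p = 0.544). INSIG1, the sterol-sensing brake on SCAP (chr7:155297776-155310235), stood at 93.3, 84.2 and 112 CPM with DMSO and at 18.7, 117 and 20.4 CPM with dabrafenib. Its replicate 2 exceeded every DMSO library, while the other two lay far below the lowest of them. The exact 95% counting intervals of the 3 dabrafenib libraries, 11.4 to 28.8, 90.8 to 148 and 8.79 to 40.1 CPM, show that counting error alone does not bridge replicate 2 and the others. INSIG1 was not called either (-0.93 ± 0.56, adjusted p = 0.531).

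MSMO1, which oxidises the methyl groups at carbon 4 of the sterol ring, followed the same order. It stood at 122, 91.1 and 142 CPM with DMSO and at 37.3, 103 and 63.6 CPM with dabrafenib. Its adjusted p of 0.0572 (-0.85 ± 0.25) was the closest to the threshold among the 28, and it was called when no filter on low counts was used (-0.88). FDFT1, the squalene synthase, had 121, 113 and 137 CPM with DMSO and 69.1, 141 and 48.3 CPM with dabrafenib, again with replicate 2 at the top. IDI1, the isopentenyl diphosphate isomerase, repeated the order at low counts with 35.8, 26.7 and 39.98 CPM against 17.7, 41.3 and 20.4 CPM (-0.40 ± 0.32, adjusted p = 0.636).

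**Figure D2:**
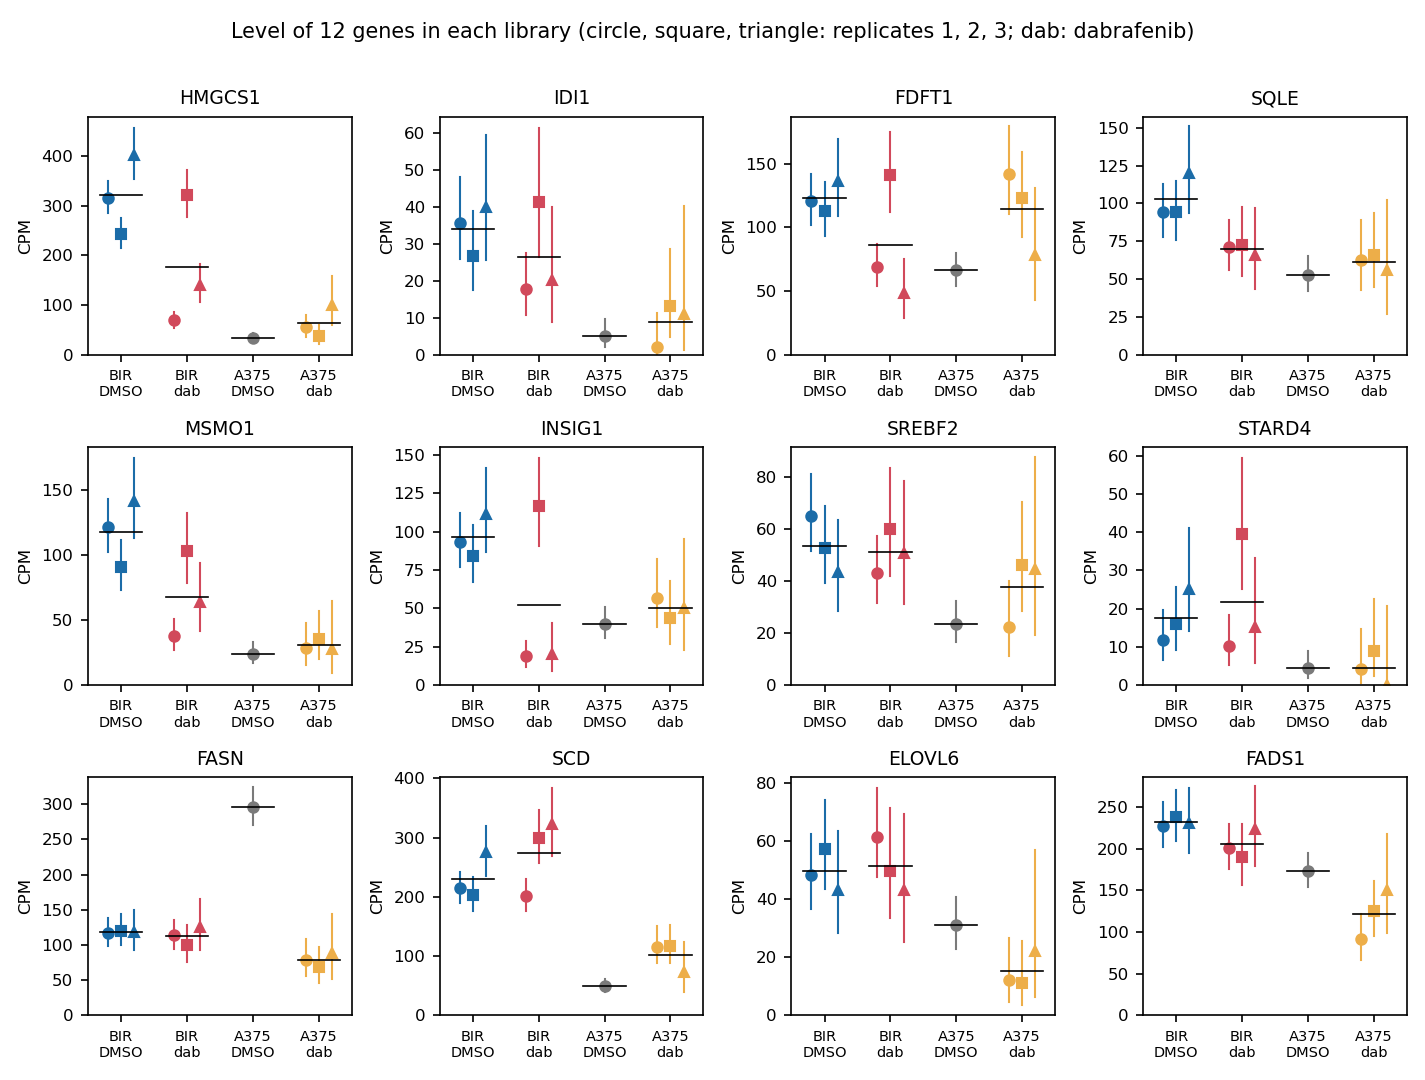
Level of 12 genes (vertical axes, CPM on TMM-scaled totals, starting at 0) in each of the 10 libraries, with exact 95% counting intervals; black bars are group means and A375 DMSO is 1 library. In A375-BIR with dabrafenib, replicate 2 (square) of HMGCS1, FDFT1, MSMO1 and INSIG1 lies apart from the other two, while the 3 SQLE libraries lie together.

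Not every sterol gene split in this way. SQLE, the squalene epoxidase, stood at 94.1, 94.1 and 120 CPM with DMSO and at 70.9, 72.2 and 66.2 CPM with dabrafenib. All 3 dabrafenib libraries were close together and below the DMSO range, and the difference of -0.53 ± 0.19 did not pass after adjustment (adjusted p = 0.155). DHCR7, which makes cholesterol from its last precursor in one branch, had 8.33, 14.9 and 15.0 CPM against 13.1, 29.2 and 5.09 CPM, a wide spread at few counts (0.40 ± 0.45, adjusted p = 0.758).

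Among the control genes, SREBF2 stood at 65.0, 52.5 and 43.3 CPM with DMSO and at 42.9, 60.2 and 50.9 CPM with dabrafenib (-0.13 ± 0.24, adjusted p = 0.881). SREBF1 was near the filter, with 17 counts over the DMSO and 20 over the dabrafenib libraries (0.70 ± 0.56, adjusted p = 0.641). INSIG2, a second INSIG protein, ran from 17.5 to 27.7 CPM with DMSO and from 19.6 to 40.7 CPM with dabrafenib (0.27 ± 0.32, adjusted p = 0.779). These ranges overlapped for all 3 genes. STARD4, a cytosolic carrier of cholesterol, had 11.7, 15.9 and 24.99 CPM against 10.3, 39.5 and 15.3 CPM, with replicate 2 highest (0.31 ± 0.42, adjusted p = 0.817); the difference became -0.46, still not called, without it.

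No fatty acid gene was called, with or without any single library. FASN, the fatty acid synthase, stood at 117, 120 and 118 CPM with DMSO and at 114, 99.7 and 125 CPM with dabrafenib (-0.07 ± 0.18, adjusted p = 0.912). SCD, the stearoyl-CoA desaturase that makes oleate, stood at 214, 203 and 275 CPM with DMSO and at 202, 299 and 323 CPM with dabrafenib (0.24 ± 0.18, adjusted p = 0.607). ELOVL6, the elongase that makes stearate, ran from 43.3 to 57.5 CPM and from 43.3 to 61.6 CPM (0.09 ± 0.23, adjusted p = 0.913). Their dabrafenib libraries overlapped the DMSO range, and none showed replicate 2 apart from both others in the way of INSIG1.

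Leaving out dabrafenib replicate 2 changed the calls. Without it 5 of 26 tested genes were lower and none higher, beside 2.5% of all genes called lower in that fit. INSIG1 fell by 2.29 on the log2 scale (adjusted p = 1.06e-08), HMGCS1 fell by 1.75 (adjusted p = 0.00138), MSMO1 fell by 1.35 (adjusted p = 3.84e-05), FDFT1 fell by 0.97 (adjusted p = 0.00146) and EBP, the sterol isomerase, fell by 0.87 (adjusted p = 0.0391). FDFT1 and EBP are named here after their values were seen. SQLE, FASN, SCD and ELOVL6 stayed uncalled. Without A375-BIR DMSO replicate 2, MSMO1 alone was called (-1.01), and without any other single library none of the 28 was. Nothing in the labels sets dabrafenib replicate 2 apart: its 560878 gene counts, its 4.88% of mitochondrial counts and its 28.6% of lines on genes lie among those of the other A375-BIR libraries.

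**Figure D3:**
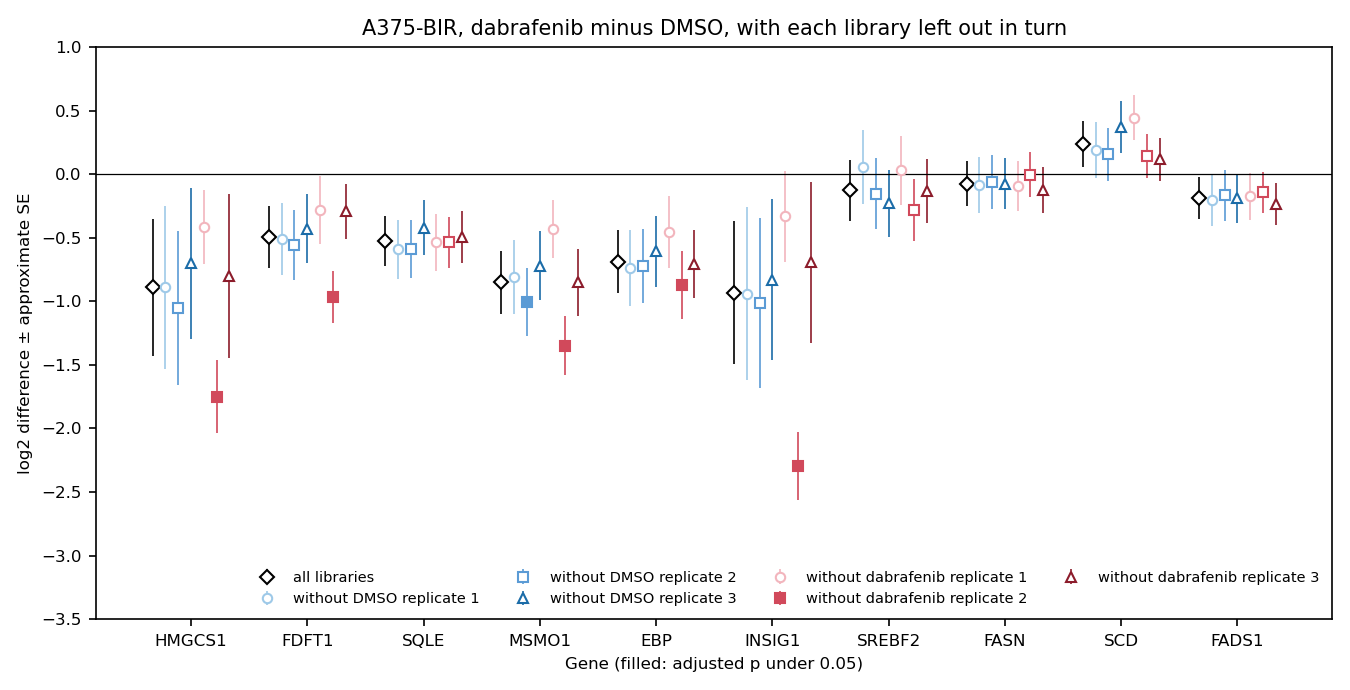
Log2 difference between dabrafenib and DMSO in A375-BIR (vertical axis, with approximate standard error) for 10 genes, with all libraries (diamond) and with each library left out in turn; filled symbols were called. INSIG1 goes from -0.93 to -2.29 and HMGCS1 from -0.89 to -1.75 without dabrafenib replicate 2, while FASN and SCD were called in none of these fits.

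The spread among the 3 dabrafenib libraries was read against 4787 genes with at least 40 CPM. The SD of log2 CPM was 1.46 for INSIG1, exceeded by 0.0418% of those genes, and 1.10 for HMGCS1, exceeded by 0.292%. Next among the listed genes was SCAP, named after its values were seen, at 0.88 (exceeded by 1.02%). In SCAP replicate 1 was the highest, not replicate 2. SQLE had an SD of 0.0657, and 96.7% of genes had a larger one. With DMSO the SD was 0.20 for INSIG1 and 0.36 for HMGCS1. Replicate 2 was more than 1.5 times as high as both others, with those below the DMSO range, in 4 of the 14 listed genes at this level (HMGCS1, FDFT1, MSMO1 and INSIG1) and in 212 of the 4787 (4.43%); this pattern was defined after the levels were seen. The libraries did not differ in the same way in every drug-responsive gene: TOP2A, a proliferation gene named after its values were seen, stood at 607, 560 and 616 CPM with dabrafenib and at 1183 to 1256 CPM with DMSO.

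Counted by library, 17 of 28 tested genes lay below the DMSO range in dabrafenib replicate 1, 8 in replicate 2 and 16 in replicate 3. The same shares over all genes tested were 31.2%, 32.5% and 36.8%, so replicates 1 and 3 stood at 60.7% and 57.1% for the listed genes and replicate 2 at 28.6%. Summed over the 8 genes up to squalene, the dabrafenib libraries held 327, 662 and 321 CPM and the DMSO libraries 697, 566 and 780 CPM. For this sum replicate 2 lay inside the DMSO range and replicates 1 and 3 below it. HMGCS1 and FDFT1, both among the genes of the replicate 2 pattern above, supplied 322 and 141 CPM of the 662 in that library. Gene by gene, 3 of the 8 lay below the DMSO range in replicate 2, 4 in replicate 1 and 7 in replicate 3. The sums of the 7 fatty acid genes were 733, 856 and 888 CPM against 814, 803 and 845 CPM, with overlap.

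**Figure D4:**
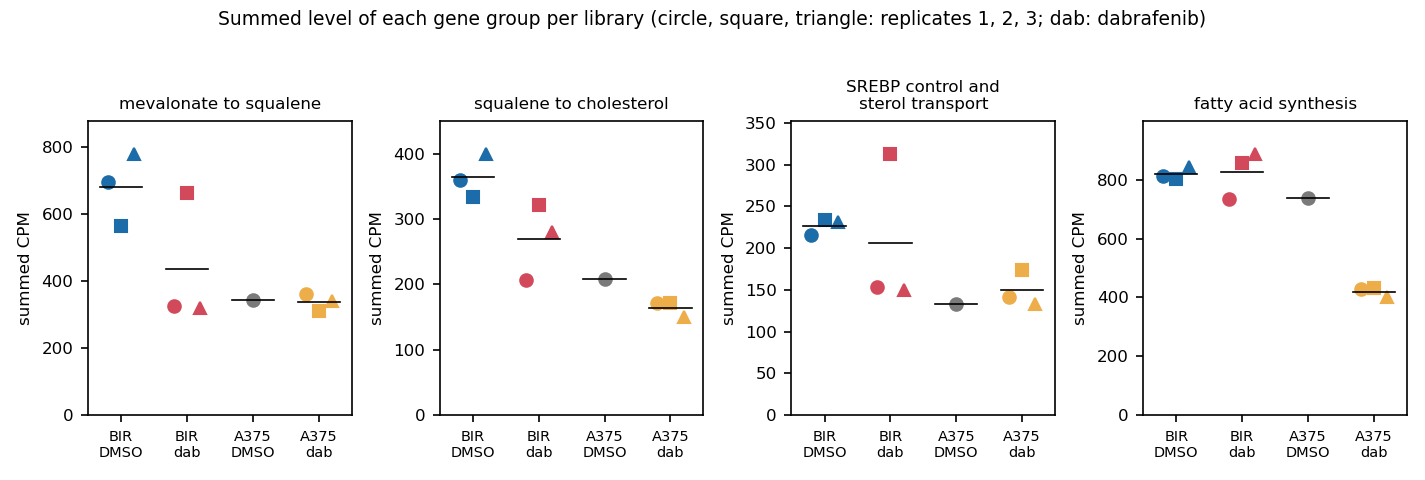
Summed level of the genes of each role (vertical axes, CPM, starting at 0) in each library; black bars are group means. Dabrafenib replicate 2 (square) of A375-BIR lies with the DMSO libraries for the summed genes up to squalene, where HMGCS1 and FDFT1 are its highest genes. The fatty acid sums of A375 with dabrafenib, 401 to 432 CPM, lie below all others.

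The lines were compared under dabrafenib, again within 1 run stamp and 3 against 3. A375-BIR was higher in 11 of the 28 tested genes and lower in none, beside 42.7% of all genes called (22.6% higher and 20.2% lower). The median difference was 0.74, against 0.04 over all genes tested. The 6 tested fatty acid genes were all higher, with a median of 0.81; of the others, 2 of 8 up to squalene, 2 of 8 from squalene to cholesterol and 1 of 6 control genes were higher. The groups lay apart in 50% of the 28 and in 48.2% of all genes tested.

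SCD stood at 202, 299 and 323 CPM in A375-BIR and at 116, 116 and 72.3 CPM in A375, a difference of 1.34 ± 0.21 (adjusted p = 3.02e-06). ELOVL6 stood at 61.6, 49.9 and 43.3 CPM against 12.2, 10.97 and 22.3 CPM (1.99 ± 0.36, adjusted p = 2.39e-05). In both genes every A375-BIR library exceeded every A375 library. FADS1, the delta-5 desaturase of polyunsaturated fatty acids, stood at 202, 191 and 224 CPM against 91.2, 125 and 150 CPM (0.81 ± 0.19, adjusted p = 0.000919). ACACA, the carboxylase that makes malonyl-CoA, stood at 59.7, 77.4 and 76.3 CPM against 42.6, 39.5 and 33.4 CPM (0.81 ± 0.27, adjusted p = 0.0149). ACLY, which makes cytosolic acetyl-CoA for both branches, was higher by 0.72 ± 0.25 (adjusted p = 0.018) and FASN by 0.55 ± 0.21 (adjusted p = 0.035), FASN from 79.1, 68.0 and 89.0 CPM in A375. FADS2, the delta-6 desaturase, was not tested and ran from 5.09 to 8.40 CPM in A375-BIR and from 5.56 to 10.1 CPM in A375. FADS1 and FADS2 share exonic sequence on opposite strands, and the strand setting of the counting is not given in the sources used here.

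Among sterol genes, ACAT2, the cytosolic thiolase that makes acetoacetyl-CoA, was higher, with 35.5, 37.8 and 20.4 CPM in A375-BIR against 4.05, 4.39 and 0 CPM in A375 (3.16 ± 0.54, adjusted p = 1.01e-05). The A375 values rest on 4 counts, and the library at 0 would show 15.1 CPM at 3 counts of its raw total. ACAT2 overlaps TCP1, a chaperonin gene on the opposite strand, which was also higher in A375-BIR (1.01 ± 0.24, adjusted p = 0.000716). IDI1 was higher by 1.65 ± 0.53 (adjusted p = 0.0109), with 2.03, 13.2 and 11.1 CPM in A375, and MSMO1 by 1.06 ± 0.35 (adjusted p = 0.0158), with 28.4, 35.1 and 27.8 CPM in A375. DHCR7 had 33 counts in A375-BIR and 2 in A375, a ratio of 9.10 with a 95% counting interval of 2.33 to 78.3 (3.08 ± 0.87, adjusted p = 0.00402). Its groups overlapped (5.09 CPM in the lowest A375-BIR and 5.56 CPM in the highest A375 library), and it entered the test through A375-BIR replicate 2 alone, at 29.2 CPM. STARD4 had 6 counts in A375 and was higher by 1.91 ± 0.67 (adjusted p = 0.0213). ACAT2, IDI1, DHCR7 and STARD4 passed the filter only through A375-BIR, where they are high, and the other 7 called genes passed it in all 4 groups.

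HMGCS1 stood at 54.7, 37.3 and 100 CPM in A375 with dabrafenib; the difference of 1.60 ± 0.73 was not called (adjusted p = 0.124). INSIG1 in A375, at 56.8, 43.9 and 50.1 CPM, lay between replicate 2 and the other two libraries of A375-BIR (-0.02 ± 0.71, adjusted p = 0.986). SQLE differed by 0.17 ± 0.24 (adjusted p = 0.599), SREBF2 by 0.49 ± 0.31 (adjusted p = 0.201), SREBF1 by 1.14 ± 0.76 (adjusted p = 0.233) and INSIG2 by 0.12 ± 0.38 (adjusted p = 0.823). None of these was called, and the libraries of the lines overlapped in HMGCS1, INSIG1, SREBF2, SREBF1 and INSIG2.

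SCD, ELOVL6 and FADS1 were called when any 1 of the 6 libraries was left out. Other calls ended: IDI1 and MSMO1 without A375-BIR replicate 2 (1.20 and 0.55) or A375 replicate 1 (1.01 and 0.98), STARD4 without A375-BIR replicate 2 (1.12) or A375 replicate 1 or 3 (1.68 and 1.65), and ACLY without A375-BIR replicate 2 (0.49) or A375 replicate 2 or 3 (0.74 and 0.54). ACACA ended without A375 replicate 2 (0.80), and FASN without A375-BIR replicate 1 or 3 (0.53 and 0.50) or A375 replicate 1 or 2 (0.58 and 0.44). DHCR7 was no longer tested without A375-BIR replicate 2, the library that alone let it in, so its call ended there as well. Without A375-BIR replicate 2, 7 of 26 tested genes were higher and 2 lower, beside 2300 higher and 2102 lower of all 10261 genes tested. The lower ones were INSIG1 (-1.39) and FDFT1 (-0.96), and PMVK became higher (1.74). Without A375-BIR replicate 1, HMGCS1 became higher (2.08). Mitochondrial and MALAT1 transcripts were more abundant in A375 with dabrafenib (MALAT1 at 5.08% to 8.60% of gene counts) than in A375-BIR with dabrafenib (2.36% to 5.78%), and their part in these differences was not tested.

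**Figure D5:**
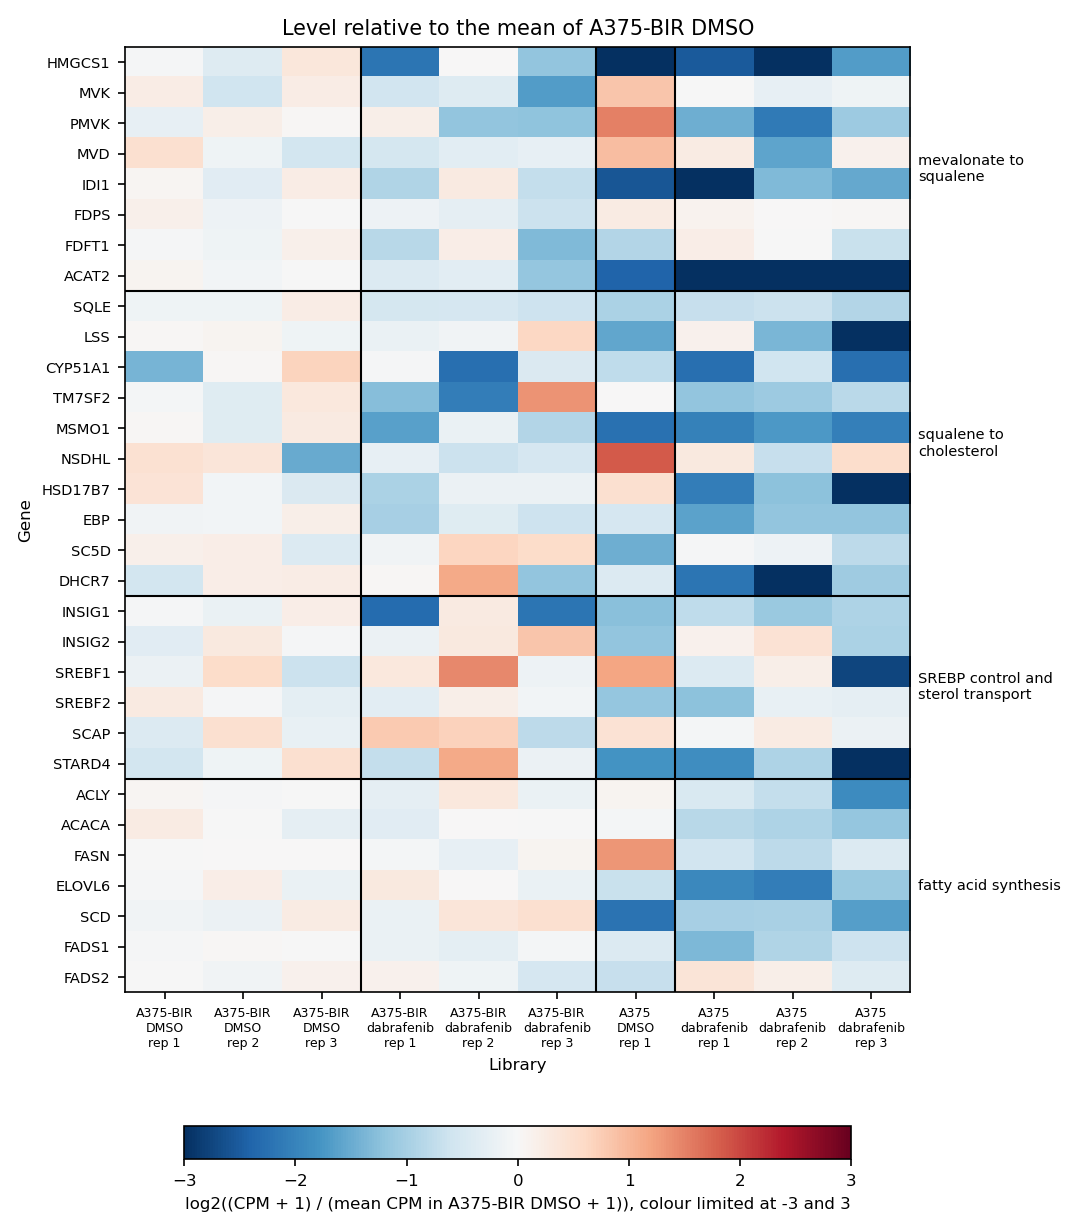
Level of the 31 genes (rows, by role) in each of the 10 libraries (columns), as the log2 ratio of CPM + 1 to the mean of A375-BIR DMSO + 1, with colour limited at -3 and 3. Blue fills the fatty acid rows ACLY to FADS1 in the 3 A375 dabrafenib columns, and A375-BIR dabrafenib replicates 1 and 3 are blue for HMGCS1, MSMO1 and INSIG1 while replicate 2 is near white.

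Both remaining comparisons use the lone A375 DMSO library, to which the fit gives the spread of the other groups. They share that library, and in neither can its run stamp be told apart from its group. Between A375 with dabrafenib and A375 DMSO, 4 of 28 tested genes were higher and 7 lower, beside 38.6% of all genes called (17.9% higher and 20.7% lower). FASN stood at 297 CPM with DMSO and at 79.1, 68.0 and 89.0 CPM with dabrafenib, and fell by 1.95 ± 0.23 on the log2 scale (adjusted p = 2.57e-08). SCD went the other way, from 48.9 CPM to 116, 116 and 72.3 CPM (1.13 ± 0.31, adjusted p = 0.00376), so the synthase and the desaturase of the same branch moved in opposite directions.

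The other lower genes were PMVK, the phosphomevalonate kinase (-3.40, 39.0 CPM against 2.19 to 5.56 CPM), NSDHL, a sterol dehydrogenase (-1.89), MVD, the mevalonate diphosphate decarboxylase (-1.24), ELOVL6 (-1.20), ACACA (-0.87) and ACLY (-0.84). The other higher genes were INSIG2 (1.39), SC5D, the sterol C5-desaturase (1.35), and FDFT1 (0.87). PMVK and NSDHL passed the filter only through the A375 DMSO library, where they are high. FASN and SCD were called without any 1 dabrafenib library. The calls of INSIG2, SC5D, FDFT1 and ELOVL6 ended without dabrafenib replicate 1 (1.40, 1.23, 0.69 and -1.10) and without replicate 2 (1.14, 1.33, 0.86 and -1.03). MVD and ACACA ended without replicate 2 (-0.72 and -0.87), and ACLY without replicate 2 or 3 (-0.86 and -0.66). With all libraries thinned to the smallest, the ACLY difference turned positive. HMGCS1 (0.76 ± 1.03), IDI1 (0.68 ± 0.77), SQLE (0.25 ± 0.29), MSMO1 (0.36 ± 0.46), DHCR7 (-2.28 ± 1.02), INSIG1 (0.35 ± 0.84), SREBF1 (-1.65 ± 0.77), SREBF2 (0.60 ± 0.39) and STARD4 (0.28 ± 0.96) were not called. The median of the 28 was -0.48; with all libraries thinned to the smallest, it was 0.48 over the 18 genes then tested.

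Between the lines in DMSO, A375-BIR was higher in 12 of 28 and lower in 4, beside 51.8% of all genes called (25.1% higher and 26.7% lower), with a median of 0.60. HMGCS1 stood at 316, 244 and 403 CPM in A375-BIR and at 33.4 CPM in A375 (3.25 ± 0.92, adjusted p = 0.022). IDI1 (2.73), ACAT2 (2.53), MSMO1 (2.27) and SCD (2.23) followed, then STARD4 (1.88), LSS, the lanosterol synthase (1.78), SC5D (1.60), INSIG2 (1.24), SREBF2 (1.22), SQLE (0.95) and FDFT1 (0.89). Higher genes thus stood in each of the 4 roles. FASN was lower (-1.32 ± 0.20, adjusted p = 1.26e-06), at 117 to 120 CPM against 297 CPM, as were NSDHL (-1.77), PMVK (-1.59) and MVK, the mevalonate kinase (-0.87). The filter let in ACAT2, IDI1 and STARD4 through A375-BIR alone, and LSS through 1 A375-BIR library with dabrafenib. PMVK and NSDHL passed through the A375 DMSO library alone. In each case this is the line where the gene is high. LSS had 6 counts in A375 DMSO. INSIG1 (1.26 ± 0.73), SREBF1 (-1.22 ± 0.59), DHCR7 (0.40 ± 0.57) and ELOVL6 (0.70 ± 0.30) were not called. INSIG1 stood at 84.2 to 112 CPM in A375-BIR with DMSO and at 39.6 CPM in A375 DMSO. Its SE draws on all groups of the fit, the widely spread A375-BIR dabrafenib libraries included. Calls that ended without 1 A375-BIR DMSO library were those of LSS (1.76 without replicate 1 and 1.73 without replicate 2), INSIG2 (1.03) and MVK (-0.62) without replicate 2, and STARD4 (1.62) and FDFT1 (0.82) without replicate 3.

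The response to dabrafenib differed between the lines in 3 of 28 tested genes, beside 22.6% of all genes tested; this comparison also rests on the lone A375 DMSO library. FASN (1.87 ± 0.29, adjusted p = 1.93e-05) and PMVK (3.04 ± 0.79, adjusted p = 0.00501) fell less in A375-BIR than in A375. FASN changed by -0.07 in A375-BIR and by -1.95 in A375, and PMVK by -0.35 and -3.40. FDFT1 (-1.36 ± 0.42, adjusted p = 0.018) changed by -0.49 in A375-BIR and by 0.87 in A375. None of these changes within A375-BIR was called. PMVK was tested only because the A375 DMSO library is high, and the same library enters this difference. FASN kept its call without any 1 of 9 libraries (1.76 to 1.94), while the count over these fits ran from 1 to 6 higher and from 0 to 5 lower. PMVK lost it without A375-BIR dabrafenib replicate 1 (2.10), and FDFT1 without that library (-1.16) or A375 dabrafenib replicate 1 (-1.19). Without A375-BIR dabrafenib replicate 2, HMGCS1 (-2.50), MSMO1 (-1.72), INSIG1 (-2.65) and SCD (-1.002) were called as well, and ELOVL6 (1.35).

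Other genes of the pathway were read by list. In the response of A375-BIR none of the 54 tested genes of the 6 lists was called by edgeR or DESeq2, and 4 had an unadjusted p under 0.05. For that count too, the share over all genes is not given here. Between the lines under dabrafenib 12 of the 54 were higher and 11 lower, a share of 42.6% beside 42.7% of all genes tested, so the calls named next stand at the background rate. ERLIN1, which helps degrade sterol-regulated proteins of the endoplasmic reticulum, was higher (1.68) and the ubiquitin ligase gene RNF139 lower (-0.85), among 7 tested. Of 10 tested genes of isoprenoid branches, COQ2, of ubiquinone synthesis (2.28), and the prenyltransferase subunits FNTA (0.96) and RABGGTB (0.91) were higher. COQ2 rests on 4 counts in A375 with dabrafenib, at 2.03, 6.58 and 0 CPM. Of all libraries only A375-BIR dabrafenib replicate 2, at 22.4 CPM, lay above the filter level of 17.5 CPM. The COQ2 difference is therefore partly set by the filter. Of 9 tested genes of sterol uptake and transport, the lysosomal cholesterol exporters NPC1 (0.88) and NPC2 (0.73) were higher and the lipoprotein receptor SCARB1 (-1.43) and the sterol carrier OSBP (-0.69) lower. PLIN2, which coats lipid droplets, was higher (2.15) and LPIN1, a phosphatidate phosphatase, lower (-1.53), among 9 of glycerolipid synthesis and storage. Of 16 other fatty acid genes 5 were higher and 6 lower, and of 3 tested genes of the LXR list MYLIP was lower (-1.36).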

How the data were processed

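The authors deposited 1 file of raw read counts per gene for each of 12 libraries. Per the labels' protocols these are QuantSeq 3′ FWD libraries from 250 ng RNA, read as single ends of 100 bases. The build hg38 is named, per the submitters' processing notes; aligner, counter, annotation and strandedness were not given in the sources used here. Lines for reads given to no gene stayed out of all totals and genes held 20.4% to 31.1% of all counted lines in the 10 human libraries. The files of 2 libraries list mouse identifiers against their labels and were left out, so A375 DMSO, planned with 3 libraries, entered with 1.

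Genes were kept by filterByExpr (minimum count 10), given TMM factors and tested by robust quasi-likelihood in edgeR 4.0.16 under R 4.3.3 (10 libraries, 6 residual degrees of freedom, common coefficient of variation 0.136). SE is the size of the log2 difference over the square root of F. DESeq2 1.42.0 was an alternative. The procedure was tested on simulated data. The labels call replicates biological without naming cultures, so p-values measure the spread between these libraries. Intervals and limits from counts cover counting error only. Tests were two-sided.

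The 31 genes, the lists and the rule for named genes (14 set genes plus every called one) were chosen with earlier results of these data known. Promoters come from RefSeq (GRCh38.p14) and gene positions from GENCODE (GRCh38). Of the 31 genes, 14 overlap an exon of a gene on the opposite strand and 2 one on the same strand.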

Additional observations from a re-analysis of the deposited data

Results flagged for a closer look

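For 3 genes the edgeR test of the difference itself found a response to dabrafenib that differed between A375-BIR and A375. PMVK differed by 3.04 (adjusted p = 0.00501): its mean level was 13.0 CPM with DMSO and 8.39 CPM with dabrafenib in A375-BIR, and 39.0 and 3.94 CPM in A375, the last value on 4 counts. PMVK passed the filter on low counts only through the A375 DMSO library, where it is high, so its difference is partly set by the filter. FASN differed by 1.87 (adjusted p = 1.93e-05), with 118 and 113 CPM in A375-BIR and 297 and 78.7 CPM in A375. FDFT1 differed by -1.36 (adjusted p = 0.018), with 123 and 86.1 CPM in A375-BIR and 66.2 and 114 CPM in A375. Each of the 3 rests on the single A375 DMSO library, whose run stamp and group cannot be told apart.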

How the results depend on the processing

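Over the values of single genes, 668 of 818 fits without 1 library and 863 of 1022 other fits kept direction and side of the threshold. DESeq2 called 106 genes for dabrafenib in A375-BIR, 2485 for dabrafenib in A375 and 1153 for the difference between responses. Between the lines it called 3445 genes in dabrafenib and 3711 in DMSO, each of 10236. Of the listed genes it called 1 higher and 2 lower in the response of A375 and 10 higher between the lines in dabrafenib. Between the lines in DMSO it called 8 higher and 2 lower, and in the difference 1 higher and 0 lower. Without a filter, 1 listed gene (MSMO1) was lower in the response of A375-BIR. With a mean count of at least 50, 10 listed genes were tested: 137, 1764, 1669, 1895 and 1133 genes were called in the 5 comparisons in the order of the report, with 4 listed genes higher between the lines in dabrafenib, 2 higher and 2 lower in the response of A375, 5 higher and 1 lower between the lines in DMSO, and 1 higher and 3 lower in the difference. With only the groups compared, 125 genes were called for dabrafenib in A375-BIR. Between the lines in dabrafenib 6 of 17 listed genes were then higher, beside 1614 of all 7550 genes tested. The fit of only the groups compared was not run for the difference, which uses all groups. Thinned to the smallest library, 70, 2479, 1418, 1851 and 613 genes were called, with 7 listed genes higher between the lines in dabrafenib, 1 higher and 1 lower in the response of A375, 5 higher and 1 lower between the lines in DMSO, and 1 higher and 0 lower in the difference; fewer counts and genes entered. Without the A375 DMSO library, an alternative chosen after seeing the data like the counts by library and the replicate 2 pattern, the counts of both comparisons that do not use it stayed within 1.5 times. The cause of the other changes was not tested.

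The replicate block (a term for the replicate number) called 1 listed gene lower in the response of A375-BIR (MSMO1, -0.86) and 1 higher in the response of A375, where STARD4 turned to -0.44; DHCR7 turned to -0.0019 between the lines in DMSO. Libraries with the same number share only a number: their deviations correlated at -0.33 to 0.27, and not every library correlated best with its own number.

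Uncalled directions also turned for INSIG1 between the lines in dabrafenib (0.0020 with DESeq2's size factors, 0.069 with DESeq2, 0.011 without a filter). Thinned, they turned for ELOVL6 in the response of A375-BIR (-0.17), SQLE between the lines in dabrafenib (-0.18) and STARD4 in the difference (-1.80). Thinning also turned directions that the main fit had called lower. These were ACLY in the response of A375 (from -0.84 to 0.083) and LPIN2 between the lines in DMSO (from -0.79 to 0.19).

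Leaving out 1 library gave 106 to 558 called genes in the response of A375-BIR, with 0 to 5 listed genes lower. Between the lines in dabrafenib 7 to 11 were higher and 0 to 2 lower, in the response of A375 1 to 4 higher and 3 to 7 lower, and in the difference 1 to 6 higher and 0 to 5 lower. All genes called in these fits ran from 3423 to 4417, from 3091 to 3597 and from 1644 to 3030, in the same order. Directions turned in some of these fits for SREBF2 (-0.28 to 0.053), ELOVL6 (-0.095 to 0.21) and STARD4 (-0.46 to 0.85) in the response of A375-BIR, INSIG1 (-1.39 to 0.58) and INSIG2 (-0.11 to 0.42) between the lines in dabrafenib, IDI1 (-0.12 to 1.32) and STARD4 (-0.52 to 0.54) in the response of A375, and STARD4 in the difference (-0.76 to 0.83). At 3 counts, the depth of the libraries leaves a level of 1.5 to 15.1 CPM undetectable.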
